A study of Mus musculus with 8 samples.

Results

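A set of 49 genes of DNA repair and damage checkpoints was followed through 8 RNA-seq libraries of mouse embryonic fibroblasts (MEFs), the connective tissue cells that grow out of embryos in culture. Members were taken by gene symbol from the 49492 rows of the table and were sorted by pathway: base excision and single-strand break repair (11 genes), homologous recombination (16), the Fanconi anaemia pathway (8), mismatch repair (3), end joining (5), checkpoint kinases (4), and the helicase Pif1 with the damage tolerance ligase Rad18 (2). The MEFs carried a floxed Pontin gene and expressed Flag-tagged Pontin from a lentivirus, either wild type (WT) or with 2 arginines replaced by alanine (RA), after Cre had removed the endogenous gene. They were a line that the study made from mice by what it names the 3T3 protocol, and infected cells were selected with hygromycin. Pontin is an ATPase of chromatin remodelling complexes, and the comparison of the forms asks what those arginines contribute to expression when glucose is short. Each form was carried by 1 stable line, so the line and the Pontin form cannot be told apart. WT and RA cells were kept in normal medium or in medium without glucose, with 2 libraries in each of the 4 groups (cells in normal medium are called unstarved), and how long the cells had been starved is not given in the sources used here.

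Cells mend damaged DNA by several routes. Base excision repair starts with glycosylases that cut out single altered bases, and the gap is then closed by an endonuclease, scaffold proteins and a ligase. Breaks through both strands are mended either by end joining, at any time in the cell cycle, or by homologous recombination, which copies the sister chromatid and works after DNA has been replicated. The Fanconi anaemia pathway opens crosslinks between the strands, mismatch repair corrects copying errors, and the kinases Atm, Atr, Chek1 and Chek2 hold the cell cycle while damage is present. Many genes of homologous recombination and the Fanconi anaemia pathway are transcribed most in dividing cells.

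Values are scaled CPM, that is read counts divided by library sizes that the authors had adjusted, and between 43205841 and 56363034 reads stood behind each library. Tests were run by limma on log2(value + 1) over the 16232 genes that reached a value of 1 in 2 or more libraries, and a gene was called at a Benjamini-Hochberg (BH) adjusted p under 0.05. Changes are differences on that log2 scale and understate the change of genes with low values. Of the 49 members, 48 passed the filter. Neil2, a glycosylase for oxidised bases, did not pass it and stood at 0.13 and 0 in unstarved WT, 0.293 and 0.183 in starved WT, 0.092 and 0.0388 in unstarved RA and 0.0392 and 0.0413 in starved RA. Nothing in the labels says that the 2 libraries of a group came from separate cultures, so the p-values measure only the spread between these libraries. In bulk RNA, fewer cells of a kind and less RNA per cell cannot be told apart. Ruvbl1, which encodes Pontin, stood at 28.4 and 27.6 in unstarved WT, 27.9 and 28.4 in starved WT, 36.8 and 32 in unstarved RA and 45 and 42.9 in starved RA, and its reads do not separate the WT from the RA form. The fibroblast markers Col1a1, Col1a2 and Vim were present in every library. By the GENCODE M21 annotation, exon bases are shared with a gene on the opposite strand over 61.7% of Apex1, 25.1% of Lig3, 16.4% of Fancc, 16.0% of Fanci, 15.4% of Rad54l, 10.6% of Ogg1 and 10.5% of Fanca, and with Fsbp on the same strand over 35.8% of Rad54b, so the reads of these genes are less certain than those of the rest.

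Promoters of the members are shown first, because many of these genes are cell cycle genes and the E2F factors that drive such genes bind short words. RefSeq promoters on GRCm38.p6 (250 bases before to 50 bases after the start of transcription) were found for 40 of the 49 members. The words TTTCGCGC, TTTGGCGC or TTTCCCGC on either strand were held by 7 of the 40 (17.5%: Bard1, Brca2, Chek2, Fancg, Msh3, Msh6 and Xrcc6) and by 4.0% of the tested genes with a promoter. The words TTTGAA or TTCGAA, found in promoters of mitotic genes, were held by 15% of the members and 16.7% of the tested genes, and CCAAT by 55.0% and 43.0%. A word is a match of letters and not a site. The 250 bases before the start of 4 members are shown, 5′ to 3′ in the sense of the gene, with the E2F words in capitals (GCGGGAAA is TTTCCCGC read from the opposite strand). They were chosen because their genes moved differently under starvation in WT: Brca2 (chr5:150522371-150522620, plus strand) and Chek2 (chr5:110839733-110839982, plus strand) fell, Xrcc6 (chr15:82016119-82016368, plus strand) rose, and Msh3 (chr13:92355004-92355253, minus strand), with overlapping words on opposite strands, was not called.
Brca2: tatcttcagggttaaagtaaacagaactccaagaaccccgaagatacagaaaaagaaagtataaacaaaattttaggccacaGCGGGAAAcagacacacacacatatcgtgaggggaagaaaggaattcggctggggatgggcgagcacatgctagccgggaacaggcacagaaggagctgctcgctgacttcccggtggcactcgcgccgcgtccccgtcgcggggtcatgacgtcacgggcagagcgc
Chek2: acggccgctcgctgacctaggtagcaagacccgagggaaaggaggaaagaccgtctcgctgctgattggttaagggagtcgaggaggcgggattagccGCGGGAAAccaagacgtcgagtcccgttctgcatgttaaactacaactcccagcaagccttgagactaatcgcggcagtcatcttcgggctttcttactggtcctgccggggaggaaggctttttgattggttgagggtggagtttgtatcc
Xrcc6: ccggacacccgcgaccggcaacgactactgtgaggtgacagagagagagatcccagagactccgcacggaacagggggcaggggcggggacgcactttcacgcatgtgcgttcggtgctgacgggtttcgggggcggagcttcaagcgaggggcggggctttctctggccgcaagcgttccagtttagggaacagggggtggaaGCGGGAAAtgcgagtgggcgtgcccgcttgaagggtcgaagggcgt
Msh3: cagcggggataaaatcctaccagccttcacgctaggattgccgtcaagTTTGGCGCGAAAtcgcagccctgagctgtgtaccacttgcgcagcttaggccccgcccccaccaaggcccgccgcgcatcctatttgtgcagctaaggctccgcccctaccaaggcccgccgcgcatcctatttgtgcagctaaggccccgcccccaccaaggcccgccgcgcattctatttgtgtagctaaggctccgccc

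Most of the repair genes were lower under glucose starvation in both lines. In WT, 29 of the 48 tested members fell and 9 rose, where 39.2% of all tested genes fell and 39.3% rose. In RA, 31 fell and 7 rose, against 33.7% and 35% of all tested genes. The median change of the members was -0.34 in WT and -0.33 in RA, beside medians of 0.0049 and 0.013 over all tested genes. These comparisons share no library, but both rest on a common estimate of the spread over all 8 libraries, so their calls are not independent. Between the lines, 26 members fell in both and 3 rose in both (Atr, Neil1 and Xrcc6). Another 4 were called in opposite directions, 5 were called in WT alone, 5 in RA alone and 5 in neither. The shares of all tested genes with these joint patterns were not counted, so these numbers say nothing particular of repair genes. On the log2(value + 1) scale, a fall of at least 2-fold was seen for 6 members in WT (Pif1, Neil3, Polq, Fancd2, Mutyh and Exo1), where 11.7% of all tested genes fell that far, and for 5 in RA (the same genes without Mutyh), where 4.58% did.

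**Figure D1:**
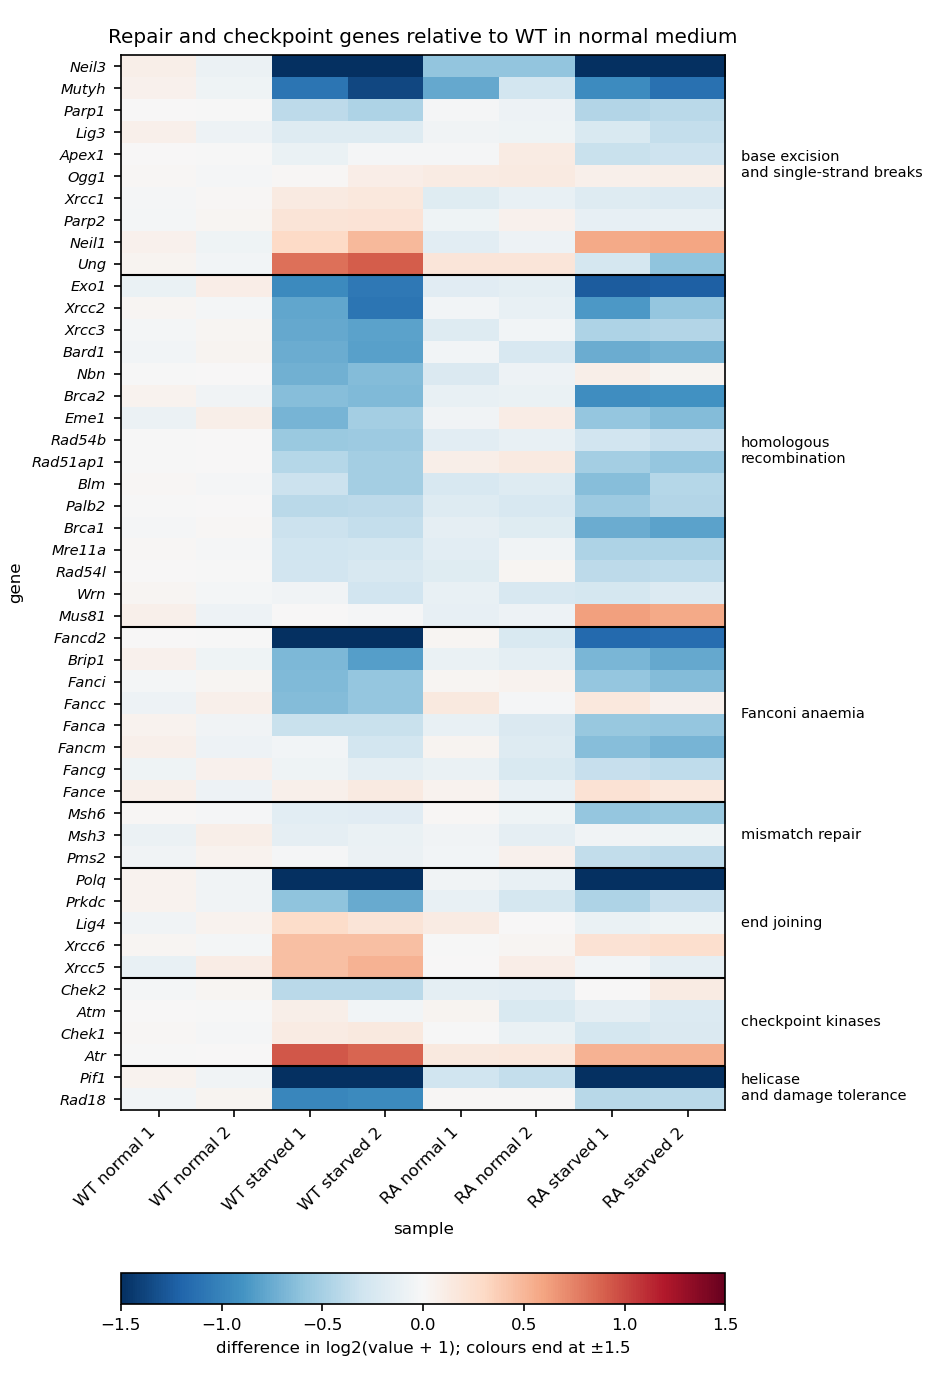
Difference in log2(value + 1) of each of the 48 tested genes from its mean in WT in normal medium, by library (columns) and by pathway (blocks, genes sorted by their change in starved WT). Blue is lower and red is higher, and the colours end at 1.5 on either side. Neil3, Fancd2, Polq and Pif1 are among the bluest in all 4 starved libraries, while Ung and Atr are red in starved WT.

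Genes of homologous recombination fell together. In WT, 14 of the 16 fell and none rose, where 39.2% of all tested genes fell, with a median change of -0.51. The 2 exceptions in WT were Wrn and Mus81. In RA, 13 of the 16 fell, against 33.7% of all tested genes, and Nbn and Mus81 rose, with a median of -0.35. The deepest fall of the group was that of Exo1, the exonuclease that lengthens the single-stranded ends at a break. Exo1 stood at 28.4 and 32.7 in unstarved WT, 15.2 and 14 in starved WT, 27.1 and 27.4 in unstarved RA and 12.3 and 12.4 in starved RA. The starved libraries of both lines were all below those in normal medium, with log2 changes of -1.02 (SE 0.076, limma BH-adjusted p = 1.79e-09) in WT and -1.08 (SE 0.076, limma BH-adjusted p = 1.4e-09) in RA. Xrcc2, which acts in strand exchange, stood at 14.1 and 13.5 in unstarved WT, 7.65 and 5.92 in starved WT, 13.3 and 12.7 in unstarved RA and 7.17 and 8.88 in starved RA. Its change was -0.94 (SE 0.11, limma BH-adjusted p = 1.03e-06) in WT and -0.64 (SE 0.11, limma BH-adjusted p = 0.0001) in RA, and its means were 2.03-fold lower in starved WT.

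The breast cancer genes and their partners fell too. Brca1, a ubiquitin ligase subunit that promotes recombination, changed by -0.34 (limma BH-adjusted p = 5.2e-05) in WT and -0.61 (limma BH-adjusted p = 7.53e-08) in RA, and Bard1, its partner in the ligase, by -0.78 (limma BH-adjusted p = 3.09e-06) and -0.58 (limma BH-adjusted p = 0.0001). Brca2, a mediator of strand exchange, stood at 23.4 and 21.5 in unstarved WT, 14 and 13.8 in starved WT, 20.6 and 20.8 in unstarved RA and 11.3 and 11.5 in starved RA. Its libraries in normal medium were all above the starved ones, with changes of -0.65 (limma BH-adjusted p = 3.82e-07) in WT and -0.81 (limma BH-adjusted p = 3.71e-08) in RA. Palb2, which joins Brca1 to Brca2, changed by -0.40 and -0.28, and the further recombination factors Rad51ap1, Rad54l, Rad54b and Xrcc3 by -0.47, -0.26, -0.55 and -0.78 in the WT line (RA: -0.66, -0.31, -0.18 and -0.34). Each of these passed the test in both lines. The call of Palb2 in RA was lost without RA normal replicate 1 (limma BH-adjusted p = 0.0695) or RA starved replicate 1 (0.103), and that of Rad54b in RA without RA normal replicate 2 (0.0988) or RA starved replicate 2 (0.134).

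Genes that act on recombination intermediates were less uniform. The helicase Blm, which dissolves joined DNA molecules, changed by -0.42 in WT and -0.31 in RA (log2), and the nuclease subunit Eme1 by -0.60 and -0.65, all of them called. The call of Blm in RA was lost without RA starved replicate 1 (limma BH-adjusted p = 0.0644). Mus81, the catalytic partner of Eme1, stood at 22.8 and 20.3 in unstarved WT, 21.5 and 21.3 in starved WT, 19.7 and 20.3 in unstarved RA and 33.5 and 32.4 in starved RA. Only the starved RA libraries stood apart from the other 6, and the change was -0.0053 (SE 0.068, limma BH-adjusted p = 0.945) in WT and 0.69 (SE 0.068, limma BH-adjusted p = 1.06e-07) in RA. Mus81 and Eme1, which form 1 nuclease, thus had opposite called changes in RA. The helicase Wrn was not called in either line and stood at 22.9 and 22.1 in unstarved WT, 21.7 and 18.3 in starved WT, 20.8 and 18.9 in unstarved RA and 18.5 and 19.3 in starved RA. In WT its change was -0.17 (limma BH-adjusted p = 0.069), and it was called lower by edgeR on the recovered reads (edgeR BH-adjusted p = 0.0327), with scaling to total reads (0.018) and without WT starved replicate 1 (0.0089).

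Among the sensors of breaks, Nbn moved differently in the lines. Nbn, the subunit of the Mre11 complex that recruits Atm to breaks, stood at 40.2 and 40.3 in unstarved WT, 24 and 25.3 in starved WT, 34.5 and 38.2 in unstarved RA and 42.7 and 41.3 in starved RA. The change was -0.68 (SE 0.059, limma BH-adjusted p = 1.13e-08) in WT and 0.21 (SE 0.059, limma BH-adjusted p = 0.00524) in RA, and the starved WT libraries were the lowest and the starved RA libraries the highest of the 8. The rise in RA was lost when RA normal replicate 1 was left out (limma BH-adjusted p = 0.0781). Mre11a, the nuclease of the same complex, fell in both lines (-0.28 in WT and -0.36 in RA).

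**Figure D2:**
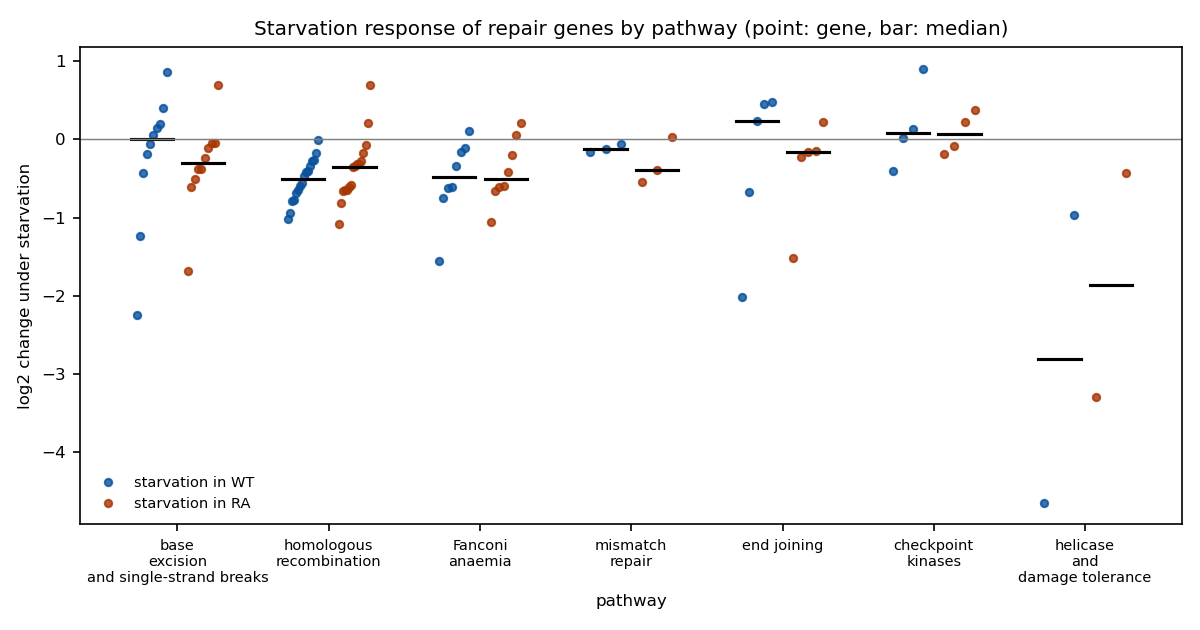
Change under glucose starvation, in log2(value + 1), of each tested gene (points) in WT (blue) and RA (brown), with the median of each pathway as a bar. All but 2 of the 16 genes of homologous recombination were called lower in WT, and the genes of end joining and base excision lie on both sides of 0.

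In the Fanconi anaemia pathway 5 of the 8 genes fell in WT and none rose, with a median change of -0.47. In RA 5 fell and Fance rose, with a median of -0.50. Over all tested genes, 39.2% fell in WT and 33.7% in RA. Fancd2, which is ubiquitinated at a crosslink and marks it for cutting, stood at 27.4 and 27.3 in unstarved WT, 8.57 and 8.73 in starved WT, 28 and 23.2 in unstarved RA and 11.6 and 11.8 in starved RA. The means were 3.16-fold lower in starved WT and 2.18-fold lower in starved RA, with no overlap in either line, and the log2 change was -1.55 (SE 0.084, limma BH-adjusted p = 2.06e-11) in WT and -1.06 (SE 0.084, limma BH-adjusted p = 6.97e-09) in RA. Fanci, the partner of Fancd2, changed by -0.62 (limma BH-adjusted p = 1.63e-07) in WT and -0.66 (limma BH-adjusted p = 1.3e-07) in RA. Brip1, a helicase that binds Brca1, stood at 21.9 and 19.8 in unstarved WT, 12.7 and 11.3 in starved WT, 19.4 and 18.7 in unstarved RA and 12.6 and 11.8 in starved RA, changing by -0.75 in WT and -0.61 in RA.

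The core complex that ubiquitinates Fancd2 did not move as a block. Fanca stood at 98.9 and 92.1 in unstarved WT, 75.3 and 75.5 in starved WT, 88.3 and 82.2 in unstarved RA and 63.8 and 63.4 in starved RA. It fell in both lines, with changes of -0.34 (limma BH-adjusted p = 5.31e-06) in WT and -0.42 (limma BH-adjusted p = 6.53e-07) in RA. Fancc stood at 13.1 and 14.7 in unstarved WT, 8.51 and 8.95 in starved WT, 15.4 and 13.6 in unstarved RA and 15.6 and 14.5 in starved RA. Only its starved WT libraries were low, with changes of -0.61 (SE 0.091, limma BH-adjusted p = 9.38e-06) in WT and 0.052 (SE 0.091, limma BH-adjusted p = 0.63) in RA. Fancm, the translocase that brings the complex to DNA, had the opposite arrangement and stood at 18.2 and 16.3 in unstarved WT, 16.7 and 14 in starved WT, 17.7 and 14.9 in unstarved RA and 10.7 and 10.2 in starved RA. It was low only in starved RA, where its change was -0.59 (SE 0.099, limma BH-adjusted p = 4.84e-05), while the WT libraries overlapped, at a change of -0.16 (limma BH-adjusted p = 0.144). Fance and Fancg, further subunits, were not called in WT. Fance stood at 23 and 20.6 in unstarved WT, 23 and 24.1 in starved WT, 22.6 and 20.1 in unstarved RA and 25.4 and 24.5 in starved RA, and its rise in RA of 0.22 (limma BH-adjusted p = 0.0161) was lost without RA normal replicate 2 (limma BH-adjusted p = 0.168) or RA starved replicate 1 (0.0945). Fancg stood at 7.74 and 8.55 in unstarved WT, 7.73 and 7.27 in starved WT, 7.54 and 6.78 in unstarved RA and 6.21 and 5.99 in starved RA, with changes of -0.10 (limma BH-adjusted p = 0.36) in WT and -0.20 (limma BH-adjusted p = 0.0939) in RA.

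Base excision genes had no common direction in WT, where the share called each way was near the 39.3% higher and 39.2% lower of all tested genes. In WT 4 of the 10 tested genes rose (Ung, Neil1, Parp2 and Xrcc1) and 4 fell (Neil3, Mutyh, Parp1 and Lig3). In RA Neil1 was the only gene of the 10 to rise and 6 fell, where 35% of all tested genes rose and 33.7% fell. The median change was -0.30 in RA against 0.0013 in WT. Ung, the glycosylase that removes uracil from DNA, stood at 10.4 and 9.74 in unstarved WT, 18.5 and 19.7 in starved WT, 11.5 and 11.5 in unstarved RA and 8.23 and 6.28 in starved RA. The starved WT libraries were the highest of the 8 and the starved RA libraries the lowest, with changes of 0.86 (SE 0.1, limma BH-adjusted p = 8.26e-07) in WT and -0.61 (SE 0.1, limma BH-adjusted p = 6.09e-05) in RA. Both calls were kept whichever library was left out.

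The glycosylases for oxidised bases did not share a direction. Neil3, which also unhooks crosslinks between the strands, stood at 39.1 and 34.8 in unstarved WT, 6.66 and 7.34 in starved WT, 24.1 and 24.2 in unstarved RA and 7.44 and 6.32 in starved RA. Its means were 5.28-fold lower in starved than in unstarved WT and 3.51-fold lower in RA, at log2 changes of -2.24 (SE 0.09, limma BH-adjusted p = 3.32e-13) in WT and -1.68 (SE 0.09, limma BH-adjusted p = 3.9e-11) in RA, and the starved libraries of the lines overlapped. Neil1, which acts on the same kinds of lesion, rose by 0.40 in WT and 0.69 in RA (log2). Mutyh, which removes adenine paired with oxidised guanine, stood at 8.57 and 7.78 in unstarved WT, 3.29 and 2.56 in starved WT, 4.37 and 6.59 in unstarved RA and 3.76 and 3.22 in starved RA. Its change was -1.23 (SE 0.15, limma BH-adjusted p = 9.9e-07) in WT and -0.51 (SE 0.15, limma BH-adjusted p = 0.0065) in RA, and the call in RA was lost without RA normal replicate 2 (limma BH-adjusted p = 0.153) or RA starved replicate 2 (0.0594). Ogg1, which removes the oxidised guanine itself, was called in no comparison and stood at 32.7 and 32.1 in unstarved WT, 32.9 and 34.7 in starved WT, 35.3 and 35.7 in unstarved RA and 34.1 and 34.6 in starved RA, within a range of 32.1 to 35.7 over the 8 libraries.

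The later steps of base excision changed by less. Apex1, the endonuclease that cuts at the empty site, stood at 98.3 and 97.8 in unstarved WT, 91.7 and 97 in starved WT, 97.2 and 107 in unstarved RA and 77.7 and 78.7 in starved RA. It was low only in starved RA, with a change of -0.38 (SE 0.048, limma BH-adjusted p = 2.19e-06), and the change in WT was -0.056 (limma BH-adjusted p = 0.294). Most exon bases of Apex1 lie over Pip4p1 on the opposite strand, and how the reads were assigned to strands is not given in the sources used here. Parp1, the main sensor of nicks, fell in both lines, at changes of -0.43 in WT and -0.37 in RA, and its relative Parp2 changed by 0.20 (limma BH-adjusted p = 0.00384) and -0.11 (limma BH-adjusted p = 0.0811). The scaffold Xrcc1 changed by 0.15 (limma BH-adjusted p = 0.0158) in WT and -0.05 (limma BH-adjusted p = 0.423) in RA, and its ligase Lig3 by -0.19 (limma BH-adjusted p = 0.00735) and -0.24 (limma BH-adjusted p = 0.00196). The WT calls of Xrcc1 (limma BH-adjusted p = 0.0971) and Lig3 (0.138) were both lost without WT normal replicate 1, and that of Xrcc1 also without WT starved replicate 2 (0.0692).

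Of the 3 mismatch repair genes, only Msh6 was called in WT, and Msh6 and Pms2 were called in RA, all lower. Over all tested genes, 39.2% fell in WT and 33.7% in RA. With 3 genes, the counts do not set the pathway apart from these shares. Msh6, which binds mismatches, stood at 76.1 and 74.8 in unstarved WT, 67.6 and 67.1 in starved WT, 76.4 and 72.3 in unstarved RA and 50.04 and 51 in starved RA, with a small fall in WT of -0.16 (SE 0.045, limma BH-adjusted p = 0.00339) and a larger one in RA of -0.55 (SE 0.045, limma BH-adjusted p = 8.88e-09). Pms2, a subunit of the nuclease that follows, stood at 17.9 and 19.4 in unstarved WT, 18.4 and 17.4 in starved WT, 18.1 and 19.6 in unstarved RA and 14.2 and 14 in starved RA. It fell in RA, by a change of -0.40 (SE 0.076, limma BH-adjusted p = 0.000191), and had a change of -0.053 (limma BH-adjusted p = 0.528) in WT, where the groups overlapped. Msh3, which binds small loops, stood at 22.2 and 25.1 in unstarved WT, 21.4 and 21.9 in starved WT, 22.8 and 21.4 in unstarved RA and 22.8 and 22.5 in starved RA and was not called in either line. By edgeR on the recovered reads its WT change was called lower (edgeR BH-adjusted p = 0.0475), as it was without WT normal replicate 1 (limma BH-adjusted p = 0.0343).

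Of the 5 end joining genes, 3 rose and 2 fell in WT, and 1 rose and 2 fell in RA. Over all tested genes, 39.3% rose and 39.2% fell in WT, and 35% rose and 33.7% fell in RA. With 5 genes, the counts do not set the pathway apart from these shares. The Ku subunits Xrcc6 and Xrcc5, which cap broken ends in classical end joining, and the ligase Lig4, which seals them, rose in WT. Xrcc5 stood at 19.7 and 23 in unstarved WT, 29.3 and 31 in starved WT, 21.4 and 22.9 in unstarved RA and 20.7 and 19.2 in starved RA. Only the starved WT libraries were high, and the change was 0.48 (SE 0.077, limma BH-adjusted p = 2.03e-05) in WT and -0.14 (SE 0.077, limma BH-adjusted p = 0.109) in RA. Xrcc6 rose in both lines, by 0.45 (limma BH-adjusted p = 7.97e-09) in WT and 0.22 (limma BH-adjusted p = 7.38e-05) in RA. Lig4 changed by 0.23 (limma BH-adjusted p = 0.00901) in WT and -0.15 (limma BH-adjusted p = 0.0776) in RA. The WT call of Lig4 was lost without WT normal replicate 1 (limma BH-adjusted p = 0.0817) or WT starved replicate 1 (0.0738). Prkdc, the kinase that binds Ku, fell in contrast and stood at 19.4 and 18 in unstarved WT, 11.9 and 10.7 in starved WT, 17.2 and 15.4 in unstarved RA and 13.3 and 14.4 in starved RA, with changes of -0.68 (SE 0.087, limma BH-adjusted p = 1.8e-06) in WT and -0.22 (SE 0.087, limma BH-adjusted p = 0.0327) in RA. The RA call of Prkdc was lost without RA normal replicate 1 (limma BH-adjusted p = 0.23) or RA starved replicate 1 (0.201). Polq, the polymerase of the alternative, microhomology-based route, stood at 28.7 and 26.5 in unstarved WT, 6.29 and 5.88 in starved WT, 26.6 and 25.4 in unstarved RA and 8.3 and 8.59 in starved RA. It was 4.53-fold lower in starved WT and 3.08-fold lower in starved RA, with a log2 change of -2.01 (SE 0.08, limma BH-adjusted p = 3.07e-13) in WT and -1.52 (SE 0.08, limma BH-adjusted p = 3.29e-11) in RA.

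Of the 4 checkpoint kinases, Atr rose in both lines. Atr, which responds to single-stranded DNA at stalled forks, stood at 24.8 and 25 in unstarved WT, 48.5 and 46.6 in starved WT, 27.7 and 27.9 in unstarved RA and 36.2 and 36.4 in starved RA. The starved libraries lay above all those in normal medium, with changes of 0.91 (SE 0.054, limma BH-adjusted p = 7.39e-11) in WT and 0.37 (SE 0.054, limma BH-adjusted p = 9.84e-06) in RA. Chek1, the kinase that Atr switches on, stood at 30.7 and 29.9 in unstarved WT, 33.1 and 33.8 in starved WT, 30.3 and 28.1 in unstarved RA and 25.1 and 25.9 in starved RA. Its changes were small and of opposite sign, 0.14 (SE 0.059, limma BH-adjusted p = 0.0439) in WT and -0.19 (SE 0.059, limma BH-adjusted p = 0.00931) in RA. The call in WT was lost in 11 of 20 other settings, among them without any 1 of the 4 WT libraries or either starved RA library. It was also lost by edgeR (edgeR BH-adjusted p = 0.126) and DESeq2 (DESeq2 BH-adjusted p = 0.103) on the recovered reads. Scaling to total reads ended it too (limma BH-adjusted p = 0.341). The call in RA was lost without RA normal replicate 1 (limma BH-adjusted p = 0.0907) or RA starved replicate 1 (0.0665).

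Chek2, the kinase downstream of Atm, went the other way and stood at 14.3 and 14.8 in unstarved WT, 10.8 and 10.7 in starved WT, 13.1 and 12.9 in unstarved RA and 14.6 and 16 in starved RA. The change was -0.40 (SE 0.081, limma BH-adjusted p = 0.000236) in WT and 0.22 (SE 0.081, limma BH-adjusted p = 0.0232) in RA. The rise in RA was lost when RA normal replicate 1, RA normal replicate 2 or RA starved replicate 2 was left out (limma BH-adjusted p = 0.0546, 0.0774 and 0.188). Atm stood at 33.1 and 32.7 in unstarved WT, 35 and 31.9 in starved WT, 33.9 and 28 in unstarved RA and 29.8 and 28.4 in starved RA. It was not called in either line, with changes of 0.022 (limma BH-adjusted p = 0.798) in WT and -0.08 (limma BH-adjusted p = 0.362) in RA. Of the 4 genes called in opposite directions in the lines (Ung, Nbn, Chek1 and Chek2), Ung alone kept both calls under every omission of 1 library.

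Pif1, a helicase that unwinds DNA and RNA-DNA hybrids at replication forks and telomeres, had the largest fall of all members. Pif1 stood at 35.5 and 32.8 in unstarved WT, 0.461 and 0.347 in starved WT, 27.5 and 26.4 in unstarved RA and 1.8 and 1.9 in starved RA, the starved WT values resting on 22 and 19 reads. The means were 84.5-fold lower in starved than in unstarved WT and 14.6-fold lower in RA. On the log2(value + 1) scale the changes were -4.65 (SE 0.1, limma BH-adjusted p = 1.04e-16) in WT and -3.29 (SE 0.1, limma BH-adjusted p = 2.83e-14) in RA. Rad18, the ligase that marks the replication clamp at stalled forks, stood at 48.5 and 51 in unstarved WT, 24.8 and 25.2 in starved WT, 50.6 and 50.2 in unstarved RA and 37.1 and 37.3 in starved RA. It fell in both lines, with log2 changes of -0.96 in WT and -0.43 in RA, and the starved RA libraries lay between the starved WT libraries and those in normal medium.

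In normal medium the lines were close. None of the 48 members was higher in RA, where 6.68% of all tested genes were, and 3 were lower, where 2.95% were, with a median difference of RA from WT of -0.091 over the members and 0.0075 over all tested genes. Neil3 was lower in RA, at a difference of -0.59 (SE 0.09, limma BH-adjusted p = 0.000377), with libraries that did not overlap. Mutyh differed by -0.52 (SE 0.15, limma BH-adjusted p = 0.0384) and Fanca by -0.16 (SE 0.047, limma BH-adjusted p = 0.0409). The call of Mutyh was lost without WT normal replicate 1 (limma BH-adjusted p = 0.227), WT normal replicate 2 (0.0895) or RA normal replicate 1 (0.286), and that of Fanca without WT normal replicate 1 (0.352), RA normal replicate 2 (0.249) or either starved RA library (0.0621 and 0.0622). Pif1, with a difference of -0.33 (SE 0.1, limma BH-adjusted p = 0.0516), was not called here and passed the threshold in 12 of 20 other settings. Scaling to total reads raised the count of called members from 3 to 7.

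Under starvation the lines differed at more members, as they did at more of all tested genes, so the increase says nothing particular of repair genes. In starved RA, 11 of the 48 were higher and 19 lower than in starved WT, against 30.8% and 32.1% of all tested genes, with a median difference of -0.073. The largest called difference was -1.29 (SE 0.1, limma BH-adjusted p = 1.21e-08) in base excision (Ung) and 0.75 (SE 0.059, limma BH-adjusted p = 9.92e-09) in homologous recombination (Nbn). It was 0.72 (SE 0.091, limma BH-adjusted p = 2.73e-06) in the Fanconi anaemia pathway (Fancc), -0.41 (SE 0.045, limma BH-adjusted p = 5.24e-07) in mismatch repair (Msh6) and -0.57 (SE 0.077, limma BH-adjusted p = 6.14e-06) in end joining (Xrcc5). Among the kinases it was 0.47 (SE 0.081, limma BH-adjusted p = 8.73e-05) for Chek2, and Pif1 differed by 1.02 (SE 0.1, limma BH-adjusted p = 1.84e-07). For Ung the means were 2.63-fold lower in starved RA than in starved WT, and for Pif1 4.58-fold higher. The mismatch repair genes Msh6 and Pms2 and the checkpoint kinases Atm, Atr and Chek1 were lower in starved RA, while Chek2 was higher. In end joining Xrcc5, Xrcc6 and Lig4 were lower and Prkdc and Polq higher. The calls of Atm (limma BH-adjusted p = 0.0366) and Fancg (0.0362) were lost in 8 and 7 of 20 other settings.

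**Figure D3:**
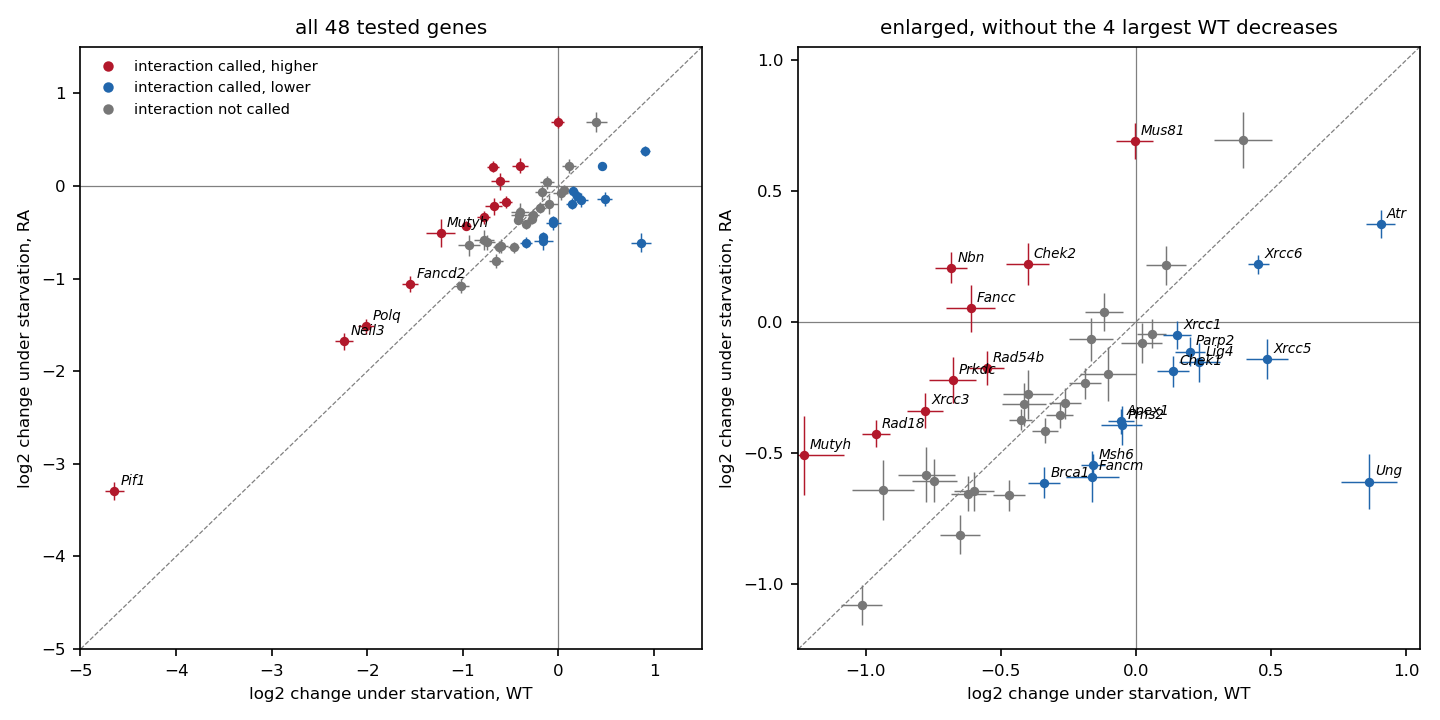
Change under starvation, in log2(value + 1), in WT (x axis) and in RA (y axis) for the 48 tested genes, with bars of 1 standard error and a dashed line of equal change; the right panel enlarges the centre. Points above the line (red, 13 called) had a higher response in RA and points below it (blue, 13 called) a lower one. Ung lies lowest against the line, at 0.86 in WT and -0.61 in RA.

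The difference between the responses, RA less WT, was tested as an interaction. It was called higher for 13 members and lower for 13, where 24.5% and 26.1% of all tested genes were, and the median over the members was -0.041. The largest interactions by pathway were those of Ung at -1.47 (SE 0.15, limma BH-adjusted p = 4e-07) and Mutyh (0.72) in base excision, Nbn at 0.89 (SE 0.084, limma BH-adjusted p = 1.89e-07) and Mus81 (0.70) in homologous recombination, Fancc (0.66) and Fancd2 (0.50) in the Fanconi anaemia pathway and Msh6 (-0.39) and Pms2 (-0.34) in mismatch repair. In end joining they were Xrcc5 (-0.63) and Polq (0.50), among the kinases Chek2 (0.62) and Atr (-0.53), and then Pif1 at 1.35 (SE 0.14, limma BH-adjusted p = 8.64e-07) and Rad18 (0.54). Within end joining the interaction was lower for Xrcc5, Xrcc6 and Lig4 and higher for Prkdc and Polq. In base excision it was lower for Ung, Apex1, Xrcc1 and Parp2 and higher for Neil3 and Mutyh.

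**Figure D4:**
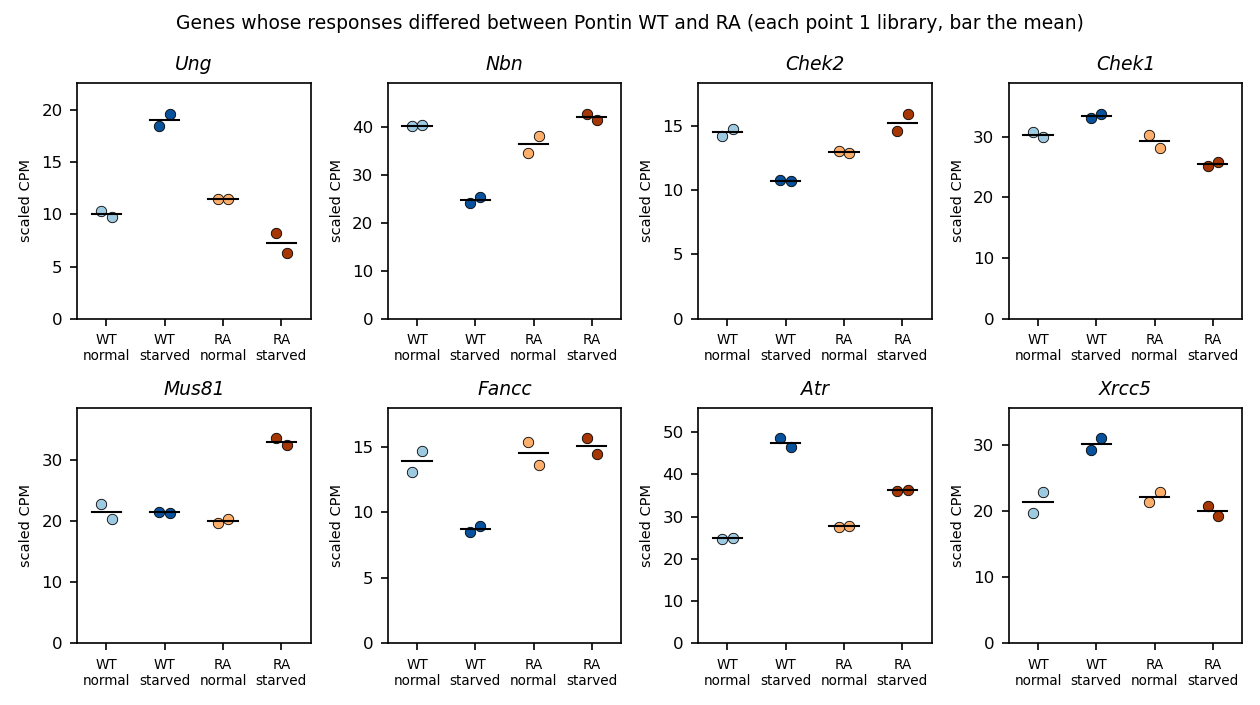
Scaled CPM of 8 genes in each library (points) with the group mean (bar), each y axis starting at 0. Ung, Xrcc5 and Atr are highest in starved WT, Mus81 is high only in starved RA, and Nbn, Chek2 and Fancc are low only in starved WT.

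Summed over a pathway, levels can be set side by side across the 4 groups, though abundant genes weigh most in a sum. Homologous recombination summed to 486 to 489 scaled CPM in unstarved WT, 346 to 351 in starved WT, 444 to 468 in unstarved RA and 359.8 to 360.3 in starved RA. The Fanconi anaemia genes summed to 229 to 238, 169 to 170.2, 209 to 228 and 160.02 to 165 in the same order. Both pathways were lower in the starved libraries of both lines. End joining summed to 253 to 259.99, 302 to 304, 255 to 256 and 257 to 263, and the checkpoint kinases to 102 to 103, 123 to 127, 96.9 to 105 and 106 to 107. Both sums were highest in starved WT, but neither rise describes its pathway as a whole. From unstarved to starved WT, mean Xrcc6 rose from 172 to 235, by more than the end joining sum (256 to 303). Prkdc and Polq fell. Mean Atr rose from 24.9 to 47.5, by about as much as the kinase sum (103 to 125), while Chek2 fell. The mismatch repair genes were lowest in starved RA, at 87 to 87.5 against 106 to 107 in starved WT.

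Other genes of the same and neighbouring pathways were taken from a list of 144, of which 143 were tested. In WT, where 39.3% of all tested genes rose and 39.2% fell, 45 rose and 64 fell, with a median change of -0.11. In RA, where 35% of all tested genes rose and 33.7% fell, 44 rose and 59 fell, with a median of -0.087. Among further genes of homologous recombination 13 of 26 fell in WT and 6 rose, and among further Fanconi anaemia genes 9 of 13 fell and 1 rose. Of 20 nucleotide excision genes 7 rose and 7 fell, which is near the share of all tested genes.

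The lowest called changes on that list in WT were those of Cdc25b, a phosphatase that starts mitosis, at -2.25 (SE 0.052, limma BH-adjusted p = 2.03e-16), Gen1, which cuts recombination junctions, at -2.05 (SE 0.11, limma BH-adjusted p = 2.28e-11), and the histone H2afx, which is phosphorylated at breaks, at -1.90 (SE 0.066, limma BH-adjusted p = 4.61e-14). The highest were targets of p53. Gadd45a, a growth arrest gene, stood at 11.6 and 11.2 in unstarved WT, 167 and 169.7 in starved WT, 16.8 and 15.2 in unstarved RA and 203 and 199.7 in starved RA, and changed by 3.77 (SE 0.052, limma BH-adjusted p = 3.7e-19) in WT and 3.58 (SE 0.052, limma BH-adjusted p = 4.64e-18) in RA. Trp53inp1 changed by 3.01 (SE 0.13, limma BH-adjusted p = 8.27e-13) in WT and Pmaip1, which promotes apoptosis, by 2.70 (SE 0.074, limma BH-adjusted p = 1.87e-15). Of the 23 listed p53 targets 14 rose and 5 fell in WT, where 39.3% of all tested genes rose and 39.2% fell. In RA 15 rose and 4 fell, against 35% and 33.7% of all tested genes. The activity of p53 itself was not tested. The interaction was lowest for Trp53inp1 (-1.34), the topoisomerase Top3a (-0.73) and the flap nuclease Fen1 (-0.72), and highest for Cdc25b (0.74), Phlda3 (0.97) and the death receptor Fas (1.25).

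Genes of cell division moved with starvation as well. All 20 listed mitosis genes fell in both lines, with a median change of -2.92 in WT and -2.39 in RA, and their summed level was 2878 to 2912 scaled CPM in unstarved WT, 414 to 415 in starved WT, 2689.8 to 2737 in unstarved RA and 608 to 615 in starved RA. Of 31 DNA replication genes 20 fell and 4 rose in WT (median -0.29) and 30 fell in RA (median -0.57), with sums of 2800.3 to 2834, 2005 to 2034, 2824 to 2876 and 1592 to 1603. The interaction was higher for 19 of the 20 mitosis genes and lower for 20 of the 31 replication genes. Over all tested genes, 39.3% rose and 39.2% fell in WT, and 33.7% fell in RA. For the interaction, 24.5% of all tested genes were higher and 26.1% lower. The part of cell division in the changes of the repair genes was not tested.

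Of the 9 fibroblast markers 8 fell in starved WT and 6 in starved RA, where 1 rose. Over all tested genes, 39.2% fell in WT, and 33.7% fell and 35% rose in RA. The fibroblast markers summed to 11082 to 11191 scaled CPM in unstarved WT, 5593 to 5679 in starved WT, 11035 to 11374 in unstarved RA and 7443 to 7456 in starved RA. Markers of other cells were low. The 5 epithelial markers summed to 1.48 to 2.1 in unstarved WT, 1.89 to 2.19 in starved WT, 1.84 to 2.25 in unstarved RA and 2.85 to 3.68 in starved RA. The 4 endothelial markers summed to 2.52 to 3.39, 8.92 to 9.43, 2.02 to 3.43 and 5.99 to 6.34 in that order, with Kdr and Tek called higher in starved WT. Pecam1 (0.478 and 0.302 in unstarved and 0.0838 and 0.0548 in starved WT) and Cdh5 (0.348 and 0.242 and 0.0419 and 0) were too low to be tested and had lower values in both starved WT libraries. The 8 leukocyte markers summed to 18.5 to 19.5, 20.7 to 22.1, 22.2 to 22.2 and 21.9 to 22.1, most of it Csf1r and Cd14. Behind that sum Csf1r rose in both lines (10.4 and 11.3 in unstarved and 19.2 and 20.1 in starved WT), and Cd14 fell in both (7.65 and 7.58 and 1.09 and 1.06). Cd3e was at 0 in every library and Ptprc in 7 of the 8.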

How the data were processed

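PolyA RNA of 8 MEF samples was sequenced as paired reads. Per the labels and the study's methods, the authors mapped reads with TopHat2 (2.0.9) to mm9 and tested differences with edgeR. The processing notes also name bedtools, with no role. The study's methods name the TruSeq RNA sample prep kit v2 for the libraries but do not speak of strand. The counter, the annotation, the filters and how reads were assigned to strands are not given in the sources used here. The deposited values are a signal, read counts over library sizes to which the authors had applied a factor (column sums 965845 to 1029723), in place of the plain CPM that had been planned for, with the same test. Whole reads were recovered for 100% of nonzero values within 0.05 of a read, and 78.2% to 80.5% of counts from 1 to 9 were even, as when both mates are counted. A value of 3 reads lay between 0.0548 and 0.069. Read totals speak to counting error only.

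Minus and plus in the column names were taken to mean normal medium and starvation, after the study's own marks. The test was limma (3.58.1, R 4.3.3) on log2(value + 1), with 4 group means over all 8 samples, eBayes with trend, 2-sided p-values and BH adjustment over 16232 genes, in 5 contrasts. Alternatives were pseudocount, filter, scaling, replicate block, samples in the fit, thresholds, omission of each sample, and edgeR (4.0.16) and DESeq2 (1.42.0) on recovered reads. Tests were tried on simulated data first. The members and lists were chosen with earlier results of these data known. Per-sample values are given for the 2 called members of each pathway with the largest change under starvation in WT, the 2 with the largest interaction, the 1 with the largest difference between genotypes in each medium, those called in opposite directions, those not called in WT, those that failed the filter, and a few more chosen after their values were seen (Brca2). Of the other genes, the 3 highest and 3 lowest under starvation in WT and in the interaction were named, and Ruvbl1 was added. GENCODE M21 on GRCm38 and RefSeq on GRCm38.p6, which are not the build of the files, gave exon overlaps and promoters only. By that annotation 23 of the 49 members share exon bases with another gene, 21 of them on the opposite strand, and their reads may be split or shared.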

Additional observations from a re-analysis of the deposited data

Results flagged for a closer look

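The 26 members below had a response to starvation that differed between the lines by the test of the interaction itself (RA response less WT response, log2, limma BH-adjusted p under 0.05). They are 13 higher and 13 lower of 48, near the 24.5% and 26.1% of all tested genes, so the count says nothing particular of repair genes. Groups of 2 were too small to look for a sample far from the others. The response in RA was the higher for Pif1 (1.35), Nbn (0.89), Mutyh (0.72), Mus81 (0.70), Fancc (0.66), Chek2 (0.62), Neil3 (0.57), Rad18 (0.54), Polq (0.50), Fancd2 (0.50), Prkdc (0.46), Xrcc3 (0.44) and Rad54b (0.38). It was the lower for Ung (-1.47), Xrcc5 (-0.63), Atr (-0.53), Fancm (-0.43), Lig4 (-0.39), Msh6 (-0.39), Pms2 (-0.34), Chek1 (-0.33), Apex1 (-0.32), Parp2 (-0.31), Brca1 (-0.27), Xrcc6 (-0.23) and Xrcc1 (-0.20). Both genotypes are single lines, so the line and the Pontin form cannot be told apart in any of them. Neil3 and Mutyh were not called between the lines under starvation, and their unstarved means were lower in RA. Neil3 means in WT and RA were 37 and 24.1 unstarved, and 7 and 6.88 starved. Mutyh means were 8.17 and 5.48 unstarved, and 2.92 and 3.49 starved. The call of Xrcc1 was lost in 12 of 19 other settings and that of Fancm in 6, with adjusted p up to 0.159 and 0.0932. Among these, Xrcc1 was lost without any 1 library other than RA normal replicate 1, and Fancm without WT normal replicate 2, WT starved replicate 1, RA normal replicate 1 or RA starved replicate 2. The call of Pms2 was lost without WT normal replicate 1 (limma BH-adjusted p = 0.0649) or RA normal replicate 2 (0.0542), and that of Mutyh without WT starved replicate 2 (0.0509) or RA normal replicate 1 (0.0586).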

How the results depend on the processing

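No called change of a member reversed its direction under any alternative. Requiring a 2-fold change left 6 of 38 called members for starvation in WT, 5 of 38 in RA, 0 of 3 between the lines in normal medium, 2 of 30 under starvation and 2 of 26 for the interaction. An adjusted p under 1e-05 left 24, 19, 0, 9 and 3 in the same order. Between the lines in normal medium, testing without the filter on low values left 1, and scaling to total reads gave 7. Leaving out 1 library at a time gave 35 to 38 called members for starvation in WT, 33 to 38 in RA, 1 to 4 in normal medium (1 without WT normal replicate 1), 26 to 31 under starvation and 24 to 25 for the interaction. Where an arm was left with 1 library, it was assumed to vary like the others. edgeR on recovered reads called 38, 38, 4, 29 and 25 and DESeq2 37, 38, 4, 29 and 25. The groups share replicate numbers. Same-numbered libraries deviated from their group means with correlations of -0.0076 to 0.157 over 6 pairs of groups. Over genes with a mean above 10 the correlations were -0.027 to 0.303. The numbers were not taken to pair the libraries, and a replicate block was fitted as an alternative. With the replicate block the counts were 39, 38, 4, 31 and 26, no call was lost, and Wrn under starvation in WT (limma BH-adjusted p = 0.0473), Pif1 between the lines in normal medium (0.0429) and Rad54l between them under starvation (0.0461) were gained. The fit on only the groups compared could not be run for the interaction, which needs all 4. Differences between the lines under starvation were lost without 1 library for Exo1 (WT starved replicate 1 or either RA starved library, limma BH-adjusted p up to 0.132), Prkdc (replicate 2 of either starved group, up to 0.115), Atm (WT starved replicate 1 or either RA starved library, up to 0.252) and Fancg (any of the 4 starved libraries, up to 0.157), and quantile normalization ended those of Rad54b (0.202) and Prkdc (0.308). The cause was not tested. With 2 libraries a group, small changes such as those of Chek1 and Xrcc1 were at the limit of what could be called.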
